A study of Mus musculus with 4 samples.

Results

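The major urinary protein (Mup) genes of mouse liver were followed in 4 spatial transcriptome sections. The members were the 10 genes with the symbols Mup1, Mup3, Mup7, Mup9, Mup11, Mup12, Mup16, Mup17, Mup18 and Mup20, out of 22 Mup symbols and 31253 measured features. All 10 passed the filter on low counts in every comparison. The assay was 10x Visium, which captures tissue RNA on barcoded spots, each a small region that can hold several cells. There were 2 sections labelled MASH, from mice given a diet labelled WD for 16 weeks, and 2 labelled MAFL, from mice given the same diet for 8 weeks. Model and weeks of diet thus changed together and cannot be told apart. Strain, sex and age are not given in the sources used here, nor do they say how many animals stand behind the sections. The p-values of MASH against MAFL thus measure the spread between sections, which may be technical. Those of the lobule zones described below, with section as a block, measure how far zone differences vary between sections, which may be technical too.

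Major urinary proteins are small lipocalins, barrel-shaped carriers that hepatocytes make in large amounts and secrete into the blood, from which they pass into the urine and carry volatile pheromones. In mouse liver they are known as male-biased genes that depend on pulses of growth hormone, acting through its receptor and the transcription factor STAT5B, and they also respond to androgen and to feeding. Most copies lie in a tandem cluster and are nearly identical, while a few peripheral copies, among them Mup3 and Mup20, have diverged. Mup20 encodes darcin, a male pheromone protein that attracts females, and Mup1 has been studied in mice as a circulating factor in glucose metabolism.

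In the RefSeq table the 10 members lie between bases 60066469 and 62087317 of chromosome 4 (GRCm38.p6, the assembly also called mm10), from Mup7 at one end to Mup3 at the other. Promoter sequences were at hand for 6 of them, and the 250 bases before the annotated start are printed for Mup17, Mup11 and Mup18, the 3 copies that passed the test between MASH and MAFL below, and for Mup3, a copy that did not. All 4 windows lie on the minus strand, at chr4:61595833-61596082 (Mup17), chr4:60662396-60662645 (Mup11), chr4:61674095-61674344 (Mup18) and chr4:62087318-62087567 (Mup3). The annotated starts here and below are those of the promoter sequences. The RefSeq gene spans reach bases 61595865 (Mup17), 60662432 (Mup11) and 61674132 (Mup18), so these 3 windows overlap the genes. The Mup9 window does so too, while that of Mup3 does not. Capitals mark the bases that differ from the aligned base of the Mup17 window or that stand in a gap of it.
Mup17: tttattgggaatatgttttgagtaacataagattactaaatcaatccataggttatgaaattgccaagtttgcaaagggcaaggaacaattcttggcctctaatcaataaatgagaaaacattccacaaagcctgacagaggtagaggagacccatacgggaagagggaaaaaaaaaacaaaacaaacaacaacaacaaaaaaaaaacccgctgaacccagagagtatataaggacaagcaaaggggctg
Mup11: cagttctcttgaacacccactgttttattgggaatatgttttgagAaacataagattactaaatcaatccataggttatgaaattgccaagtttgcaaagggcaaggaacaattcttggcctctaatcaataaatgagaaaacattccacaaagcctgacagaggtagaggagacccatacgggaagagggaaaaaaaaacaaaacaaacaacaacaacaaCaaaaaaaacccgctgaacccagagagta
Mup18: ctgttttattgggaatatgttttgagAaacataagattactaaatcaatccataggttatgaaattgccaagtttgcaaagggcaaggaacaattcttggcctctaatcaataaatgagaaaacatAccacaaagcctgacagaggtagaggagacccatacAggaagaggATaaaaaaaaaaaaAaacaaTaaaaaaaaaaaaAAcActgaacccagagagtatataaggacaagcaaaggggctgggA
Mup3: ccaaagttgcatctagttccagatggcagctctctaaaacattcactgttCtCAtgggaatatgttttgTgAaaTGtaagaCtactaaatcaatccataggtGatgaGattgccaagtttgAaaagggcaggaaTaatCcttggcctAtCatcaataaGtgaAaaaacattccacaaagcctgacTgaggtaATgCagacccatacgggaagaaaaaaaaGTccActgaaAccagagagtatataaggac
Over the whole windows, which run from 250 bases before to 50 bases after the start, Mup11 and Mup17 were identical at 99.6% of 276 aligned bases, Mup18 and Mup17 at 96.2% of 293, and Mup3 and Mup17 at 87.6% of 251. The letters TTCNNNGAA, the palindrome that STAT5 proteins are known to bind, were in 0 of the 6 windows, against 8.30% of all 32851 windows of the table, which says only that these letters are not in these bases. The letters TATATAA, searched on both strands after the sequences had been seen, were in the 250 bases before the start of 4 of the 6 members, against 3.04% of all windows, and began at position -31 from the start in Mup9, -28 in Mup18, -25 in Mup17 and -11 in Mup3. In Mup11 they began at -2 and ran past the annotated start, so they lie outside those 250 bases. Because the copies are so alike, a read can match several of them, and how the counting divided such reads is not given in the sources used here. The values of single copies are therefore uncertain, levels are not ranked between copies, and sums over copies are given beside them.

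The kept spots numbered 2467 and 1862 in MASH-1 and MASH-2 and 2036 and 1881 in MAFL-1 and MAFL-2, and held between 32249289 and 63808230 unique molecular identifiers (UMIs, 1 per captured RNA molecule) per section. Levels are given as CPM, the UMIs of a gene per 1000000 UMIs of the section or of a part of it. Of 3242 spot barcodes 992 were shared by all 4 sections, since Visium barcodes mark slide positions. The hepatocyte markers Alb, Apoa1, Apoa2, Serpina1a, Ahsg and Fgb summed to 103340 and 104558 CPM in the MASH sections and to 97156 and 99935 CPM in the MAFL sections, and 0 of the 6 passed the test between the groups in edgeR (2 at an unadjusted p under 0.05 and 2 lower in DESeq2). The 4 Y-linked genes Kdm5d, Eif2s3y, Uty and Ddx3y were present in every section, Ddx3y at 30.5 and 53.1 CPM in MASH and 32.7 and 35.1 CPM in MAFL, while the female transcript Xist was at or below 0.093 CPM in all 4 and its antisense partner Tsix at or below 0.157 CPM. Of the Y-linked genes 0 of 4 passed in edgeR or DESeq2, and 1 had an unadjusted p under 0.05 in edgeR.

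Together the 10 members took 3.66 and 3.57% of all UMIs in the MASH sections, against 6.79 and 5.67% in the MAFL sections. Their summed level was 36174 ± 661 CPM in MASH and 62296 ± 7890 CPM in MAFL (SD, n = 2 sections each), 1.72-fold lower in MASH, and the sections of the groups did not overlap. Mup3 and Mup20 carried nearly all of what was measured in MASH. The other 8 members summed to 1463 ± 1200 CPM in MASH, against 19966 ± 904 CPM in MAFL, 13.6-fold lower. They made up 6.31 and 1.72% of the member UMIs in MASH, against 30.4 and 34.1% in MAFL. Mup20 made up 61.0 and 76.9% of the member UMIs in MASH, against 43.0 and 35.9% in MAFL, and Mup3 made up 32.7 and 21.4%, against 26.6 and 30.0%. In the plot of shares by copy the orange part, the 8 other members, is a thin band in MASH and about as thick as the Mup3 part in MAFL.

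**Figure D1:**
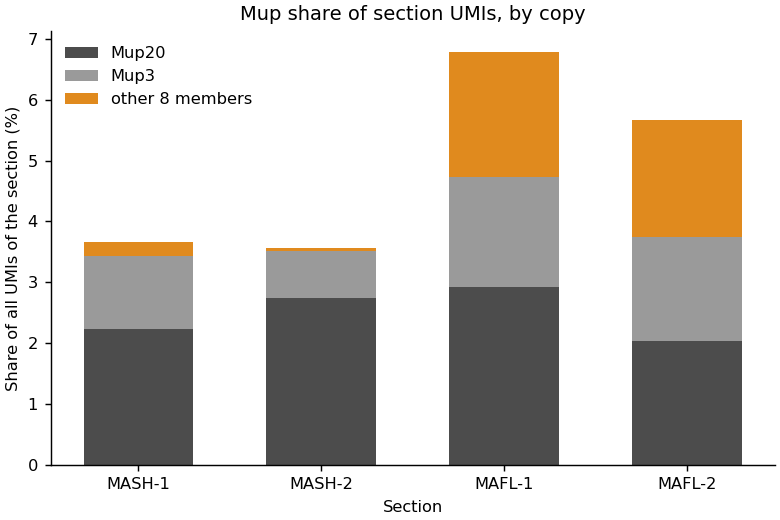
Share of all UMIs of a section (%, vertical axis from 0) taken by Mup20, Mup3 and the other 8 members, stacked, for sections MASH-1, MASH-2, MAFL-1 and MAFL-2. The totals are 3.66 and 3.57% in MASH and 6.79 and 5.67% in MAFL, and the Mup20 part overlaps between the groups.

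Of the 10 members, Mup11, Mup17 and Mup18 were lower in MASH than in MAFL at an adjusted p of 0.05 in edgeR's quasi-likelihood test over whole sections. That is 3 of 10, beside 0.147% of all 13593 genes tested that were called lower, and 0 of 10 were called higher (0 at an unadjusted p under 0.05 and 0 by DESeq2), beside 0.309%. Mup11 stood at 420 and 184 CPM in the MASH sections, against 6973 and 6824 CPM in the MAFL sections. Both MASH values lay far under both MAFL values, and the log2 fold change was -4.59 (SE 0.49, adjusted p = 0.0411). Mup17 was measured at 365 and 265 CPM in MASH, against 4414 and 4534 CPM in MAFL. Here the sections of each group lay close together, with a log2 fold change of -3.92 (SE 0.27, adjusted p = 0.0062). Mup18 had 13.1 and 10.8 CPM in MASH, against 230.4 and 236.7 CPM in MAFL. Its log2 fold change of -4.38 (SE 0.21, adjusted p = 0.0011) was again large beside the spread within either group. The calls of Mup17 and Mup18 stood when any 1 section was left out, while the adjusted p of Mup11 came to 0.146 without MAFL-1 and 0.0569 without MAFL-2, within a range of 4.84e-36 to 0.146 over 11 alternatives.

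For 5 further copies both MASH values lay under both MAFL values but the difference did not pass the test, and the MASH sections of each were far apart. Mup7 stood at 995 and 36.2 CPM in MASH, against 6500 and 5857 CPM in MAFL (log2 fold change -3.63, SE 1.74, adjusted p = 0.365). Mup1 stood at 113 and 13.6 CPM in MASH, against 680 and 659 CPM in MAFL (log2 fold change -3.45, adjusted p = 0.265). In both genes MASH-2 was well below MASH-1, so that the MASH sections differed by more than the MAFL sections did. Mup12 had 44.5 and 15.4 CPM in MASH, against 324 and 292 CPM in MAFL (adjusted p = 0.121). Mup16 had 74.3 and 21.8 CPM in MASH, against 632 and 466 CPM in MAFL (adjusted p = 0.147). Mup9 had 287 and 67.7 CPM in MASH, against 851 and 458 CPM in MAFL (adjusted p = 0.343). MASH-2 was the lowest section for each of these 5 copies.

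The diverged copies differed less between the groups. Mup3 stood at 11984 and 7649 CPM in MASH, against 18068 and 17020 CPM in MAFL. The groups did not overlap, and the log2 fold change of -0.92 (SE 0.28, 95% interval -1.58 to -0.27) missed the threshold at an adjusted p of 0.164. Mup20 was measured at 22346 and 27444 CPM in MASH, against 29202 and 20370 CPM in MAFL. The MASH values lay between the MAFL values, with a log2 fold change of -0.10 (SE 0.23, 95% interval -0.64 to 0.45, adjusted p = 0.850). Its sign turned to 0.01 when library totals alone scaled the counts, a scaling that moved the median log2 fold change of all genes to 0.11, and to 0.14 when MAFL-1 was left out. By CPM, 9 of the 10 members, all but Mup20, had both MASH values under both MAFL values, beside 18.2% of all genes tested.

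The number of members called depended on the test and on the sections. DESeq2 called Mup3, Mup11, Mup12, Mup16, Mup17 and Mup18 lower, 6 of 10 beside 1.78% of the genes it tested. With MASH-1 left out edgeR called 9 members, and with MASH-2 left out 7, each time with the lone MASH section taken to vary as the other sections do. Without either MAFL section 2 were called. In the plot of levels by section the red and blue points of Mup17 and Mup18 form tight pairs that lie far apart. For Mup11 the blue points form a tight pair far above the red points, which are less close together. For Mup1, Mup7 and Mup16 the MASH-2 point lies well below the MASH-1 point.

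**Figure D2:**
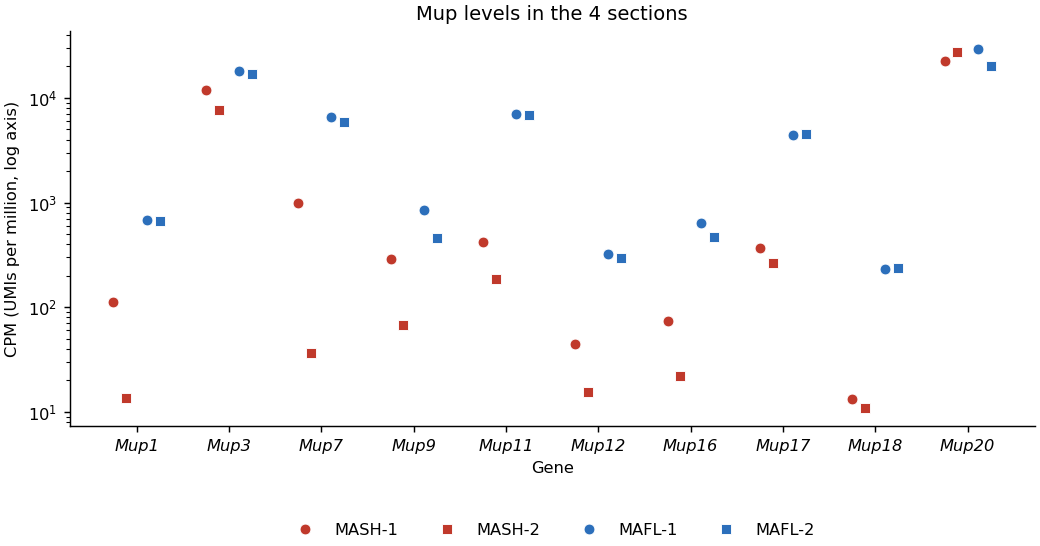
Level of each of the 10 Mup genes in CPM (log axis) in sections MASH-1 and MASH-2 (red circle and square, left) and MAFL-1 and MAFL-2 (blue circle and square, right). For 9 genes both red points lie below both blue points, and for Mup20 the red points at 22346 and 27444 CPM lie between the blue points at 29202 and 20370 CPM.

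A ratio of 2 genes within a section does not depend on how libraries are scaled. There were 1.88 and 0.671 Mup11 UMIs per 100 Mup20 UMIs in MASH, against 23.9 and 33.5 in MAFL. For Mup17 these ratios were 1.63 and 0.964 in MASH, against 15.1 and 22.3 in MAFL, and for Mup3 53.6 and 27.9, against 61.9 and 83.6. For all 9 members the ratios to Mup20 in MASH lay under those in MAFL. The 9 ratios share the Mup20 counts, and how many of all genes have ratios apart in this way was not counted. Each of the 9 two-sided exact permutation tests gave p = 0.33, the smallest that 2 against 2 sections allow.

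For 3 of the 9 members that were lower by CPM in MASH the spots of the groups were nearly apart. Mup11 had a median of 2.61 and 0.998 UMIs per 10000 UMIs of a spot in MASH-1 and MASH-2, against 53.7 and 66.4 in MAFL-1 and MAFL-2. The spot at the 90th percentile in MASH, at 12.1 and 7.16, was below the spot at the 10th percentile in MAFL, at 25.8 and 31.0. The same separation held for Mup17 (90th percentile 10.1 and 8.29 in MASH, 10th percentile 13.2 and 15.6 in MAFL) and for Mup3 (144.9 and 105.6 in MASH, 151 and 147 in MAFL). It did not hold for the other 6: the 90th percentile in MASH-1 was 24.2 for Mup7, 2.83 for Mup1, 7.66 for Mup9, 1.18 for Mup12, 1.84 for Mup16 and 0.504 for Mup18. The lower of the 10th percentiles in MAFL-1 and MAFL-2 was 23.2 for Mup7, 2.27 for Mup1, 1.05 for Mup9, 0.951 for Mup12, 1.83 for Mup16 and 0 for Mup18. In MASH-2 the 90th percentile was 1.39 for Mup7 and 0.626 for Mup1. Mup20 spots overlapped widely, with 10th to 90th percentiles of 134 to 312 and 157 to 351 in MASH and 196 to 385 and 134 to 284 in MAFL. A spot holds several cells, so fewer cells that make a transcript and less of it per cell cannot be told apart.

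The liver lobule runs from the portal vein to the central vein, and hepatocytes along this axis make different proteins. Spots were ranked within each section by log2((Cyp2f2 + 1)/(Cyp2e1 + 1)), the UMIs of a periportal cytochrome P450 over those of a pericentral one, and cut into 3 zones of equal size, periportal, middle and pericentral. The zones are ranks within a section, and between 6.87 and 8.83% of the spots of a section lay within 0.1 of a border. The borders stood at scores of -4.31 and -2.41 in MASH-1, -3.25 and -1.34 in MASH-2, -2.38 and 0.10 in MAFL-1 and -3.30 and -1.17 in MAFL-2. A zone of the same name thus covers unlike scores in different sections, and the part of this in the zone results was not tested. Along this axis 8 copies were lower periportally and Mup20 was higher periportally in both groups. Mup3 was nearly level in MAFL, while its MASH sections went opposite ways.

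Within MASH, Mup1, Mup7, Mup9, Mup11, Mup12, Mup16, Mup17 and Mup18 were lower in the periportal than in the pericentral zone in edgeR with section as a block, 8 of 10 members beside 10.2% of 12575 genes called lower. Mup20 was the 1 member called higher, beside 9.46% of genes. Within MAFL the same 8 were lower, beside 4.73% of genes, and Mup20 was higher, beside 3.94%. With library totals alone the calls over all genes in MASH split into 724 higher and 1750 lower, against 1190 and 1284, and 9 members were called in each group. In MASH, Mup17, Mup18 and Mup20 lost the call without either MASH section, and Mup7 and Mup9 also lost it without MASH-1. In MAFL, Mup7, Mup11 and Mup18 lost it without either MASH section, Mup20 without MASH-1, and Mup12 without MAFL-1, at a difference of -0.34. Mup3, not called with all sections, was then called in MASH with opposite signs, at 0.60 without MASH-1 and -0.15 without MASH-2. By CPM in every one of the 4 sections, 8 members were lower periportally (beside 19.9% of genes) and 1 was higher (beside 13.4%).

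Mup11 stood at 117 CPM in the periportal and 844 CPM in the pericentral zone of MASH-1, and at 47.7 and 458 CPM in those of MASH-2. In MAFL-1 it stood at 3129 and 11898 CPM and in MAFL-2 at 3622 and 10499 CPM. Each section was several-fold lower periportally, with a log2 difference of -2.99 in MASH (SE 0.09, adjusted p = 4.08e-20) and of -1.73 in MAFL (SE 0.09, adjusted p = 4.35e-15). Mup17 stood at 107.5 CPM periportally and 723 CPM pericentrally in MASH-1 and at 99.6 and 592 CPM in MASH-2. In MAFL-1 it had 1607 and 8848 CPM and in MAFL-2 1832 and 8423 CPM. The log2 differences were -2.59 in MASH (SE 0.17, adjusted p = 8.63e-05) and -2.33 in MAFL (SE 0.16, adjusted p = 0.00027), and the call in MASH ended without MASH-1 (adjusted p = 0.0712) and without MASH-2 (0.0530). Mup9 had the largest differences in both groups, at -3.20 in MASH and -2.36 in MAFL, and Mup12 the smallest of the 8 in MAFL, at -0.49, beside -1.37 in MASH. For Mup18, whose level in the MASH zones was between 5.84 and 20.3 CPM, the adjusted p in MASH was 0.0404 and came to 0.472 without MASH-1 and 0.198 without MASH-2.

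Mup20 ran the other way. It stood at 29071 CPM periportally and 15830 CPM pericentrally in MASH-1, and at 31781 and 22287 CPM in MASH-2. In MAFL-1 the levels were 36539 and 21847 CPM and in MAFL-2 26803 and 14602 CPM. All 4 sections were higher periportally, between 1.43- and 1.84-fold, with log2 differences of 0.76 in MASH (SE 0.08, adjusted p = 1.15e-10) and 0.81 in MAFL (SE 0.08, adjusted p = 4.11e-11). Without MASH-1 the adjusted p of Mup20 in MASH was 0.101 and without MASH-2 0.0587, at differences of 0.67 and 0.86.

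Mup3 was level along the lobule in MAFL, at 18245 periportally and 17959 CPM pericentrally in MAFL-1 and at 17331 and 16836 CPM in MAFL-2 (log2 difference 0.04, adjusted p = 0.943). In MASH the 2 sections went opposite ways. MASH-1 had 11366 CPM periportally and 12499 CPM pericentrally, and MASH-2 had 8499 and 6241 CPM. The pooled difference of 0.23 was not called (adjusted p = 0.387), and it was -0.15 without MASH-2 (adjusted p = 1.73e-05) and 0.60 without MASH-1 (adjusted p = 3.21e-28), so no direction is given for Mup3 in MASH.

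**Figure D3:**
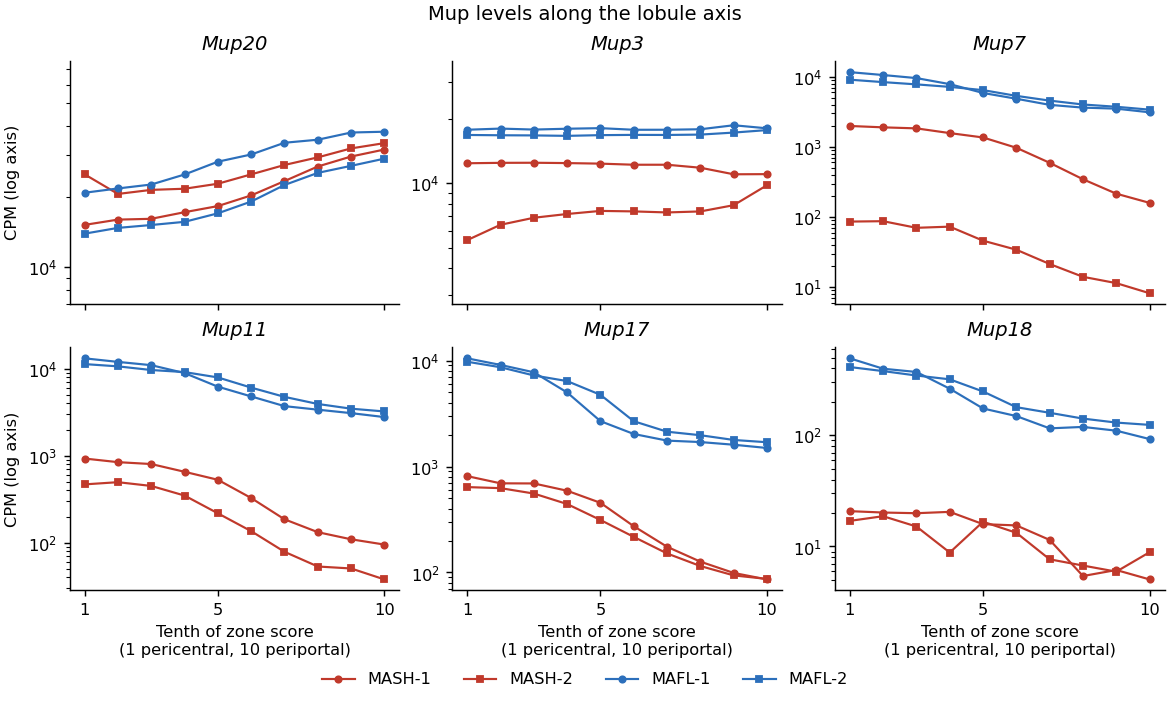
Level in CPM (log axis) of Mup20, Mup3, Mup7, Mup11, Mup17 and Mup18 in 10 classes of equal size of the spots of each section, ranked by the zone score from pericentral (1) to periportal (10), with MASH sections in red and MAFL sections in blue. Mup20 climbs towards the periportal end in all 4 sections, from the second class on in MASH-2, Mup3 is nearly flat in MAFL, and Mup7, Mup11, Mup17 and Mup18 decline towards the periportal end with the red lines below the blue.

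**Figure D4:**
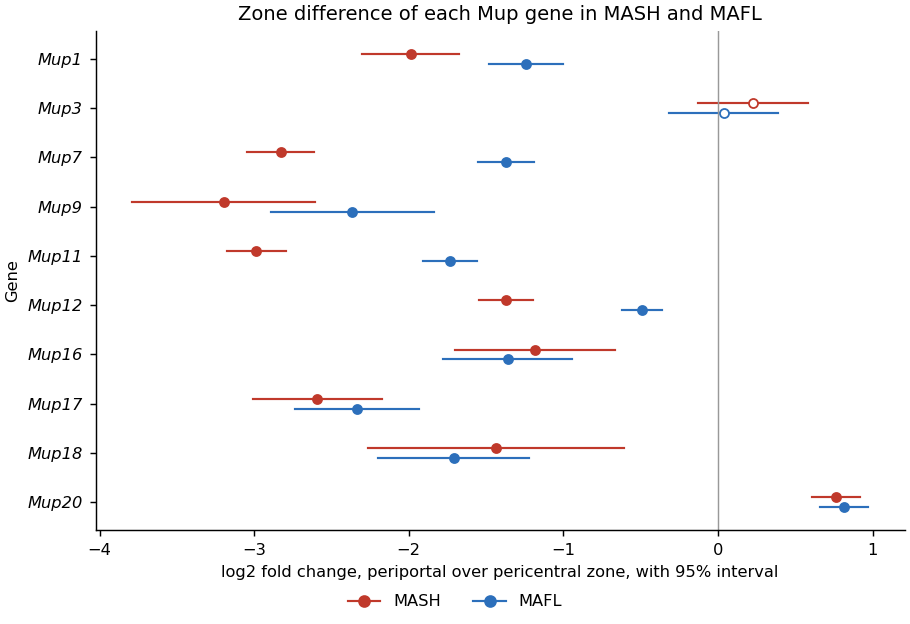
Log2 fold change of each Mup gene, periportal over pericentral zone, with its 95% interval, in MASH (red) and MAFL (blue). Filled points passed an adjusted p of 0.05 in edgeR: 8 genes lie below 0 and Mup20 above 0 in both groups, and Mup3 is open in both.

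The summed level of the 10 members ran opposite ways along the lobule in the groups. It was 41097 CPM periportally and 32746 CPM pericentrally in MASH-1, and 40497 and 29926 CPM in MASH-2. In MAFL-1 it was 64390 and 75534 CPM and in MAFL-2 54655 and 61897 CPM. The periportal zone was thus 1.26- and 1.35-fold of the pericentral zone in the MASH sections and 0.852- and 0.883-fold in the MAFL sections, a description without a test. The 8 members without Mup3 and Mup20 summed to 0.149 and 0.155 of their pericentral level in the periportal zone of the MASH sections, against 0.269 and 0.345 in the MAFL sections.

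Within each zone the comparison of MASH with MAFL called Mup11, Mup17 and Mup18 lower, as over whole sections, and 0 of 10 higher (0 by DESeq2). Beside these 3 of 10, edgeR called 0.369% of 12478 genes lower in the periportal zone, 0.134% of 11908 in the middle zone and 0.237% of 11800 in the pericentral zone, and 0.914, 0.311 and 0.364% higher. DESeq2 called 7, 5 and 5 members lower, beside 1.07, 0.997 and 0.998% of genes. By CPM the same 9 members as over whole sections had both MASH values under both MAFL values in each zone, beside 19.3, 18.5 and 16.3% of genes. With library totals alone, the calls over all genes split into 139 higher and 31 lower periportally, against 114 and 46, and into 41 higher and 17 lower pericentrally, against 43 and 28, with 3 members called each time. Mup11 averaged 82.3 CPM in MASH and 3375 CPM in MAFL periportally, 300.1 and 6367 CPM in the middle, and 651 and 11199 CPM pericentrally. The ratio was 41.0-fold, 21.2-fold and 17.2-fold lower in MASH in the 3 zones, with log2 fold changes of -5.43, -4.46 and -4.20 (adjusted p of 0.0319, 0.0414 and 0.0037). Mup17 was 16.6-, 10.2- and 13.1-fold lower by mean CPM and Mup18 18.4-, 13.5- and 21.8-fold lower.

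The call of Mup11 ended without MAFL-1 in the periportal zone (adjusted p = 0.194 within 1.73e-92 to 0.194 over 13 alternatives) and in the middle zone (0.0745 within 6.60e-46 to 0.0835), and likewise without MAFL-2 (0.150 and 0.0701). In the middle zone the call of Mup11 also ended in edgeR with the replicate number as a block (adjusted p = 0.0835). It ended there with zones ranked within bins of total UMIs too (0.0644). Mup17 lost its call in the middle zone with the replicate number as a block (adjusted p = 0.0603 in edgeR). The call of Mup11 stood pericentrally in all 13 alternatives, and the adjusted p of Mup18 stayed under 0.05 in every zone and alternative. Leaving out MASH-1 gave 9, 9 and 8 members in the periportal, middle and pericentral zones, and leaving out MASH-2 gave 8, 7 and 7. Mup7 was the widest apart in the MASH zones, at 257 and 11.3 CPM periportally in MASH-1 and MASH-2, against 3452 and 3777 CPM in the MAFL sections (log2 fold change -4.81, SE 1.97, adjusted p = 0.381). Mup7, Mup1, Mup9, Mup12 and Mup16 passed in none of the zones, with log2 fold changes of -4.81 to -3.30, -4.07 to -3.19, -2.65 to -1.34, -3.95 to -3.07 and -3.65 to -3.20 over the zones. The smallest adjusted p among them were 0.0709 for Mup16 and 0.0946 for Mup12, both periportally. Mup3 was 1.79-, 1.77- and 1.86-fold lower by mean CPM in the 3 zones and passed in none (adjusted p of 0.0844, 0.217 and 0.234). Mup20 in MASH was at 96.1, 91.8 and 105% of its MAFL mean in the periportal, middle and pericentral zones, with log2 fold changes of -0.13, -0.21 and -0.08 whose sign turned in each zone without MAFL-1 and, pericentrally, also without MASH-1, with library totals alone and with zones ranked within bins of total UMIs.

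**Figure D5:**
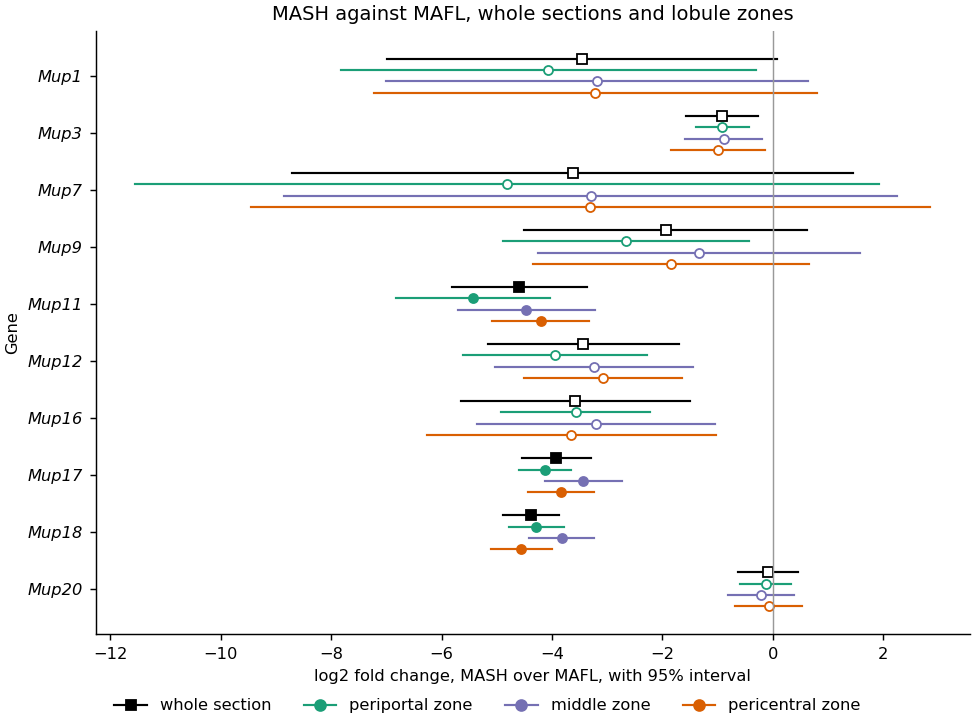
Log2 fold change of each Mup gene, MASH over MAFL, with its 95% interval, for whole sections (black squares) and the periportal, middle and pericentral zones (coloured circles). Filled symbols passed an adjusted p of 0.05 in edgeR, which were Mup11, Mup17 and Mup18 in all 4 comparisons, and the intervals of Mup20 span 0 throughout.

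Whether the zone difference itself differed between MASH and MAFL was tested as an interaction in the fit of the 12 section zones. It was more negative in MASH for Mup7, Mup11 and Mup12, 3 of 10 members beside 0.215% of 12575 genes, and more positive for 0 (0 by DESeq2), beside 0.31%. The difference between the groups was -1.46 for Mup7 (SE 0.13, adjusted p = 3.73e-07), -1.25 for Mup11 (SE 0.12, adjusted p = 3.73e-07) and -0.88 for Mup12 (SE 0.11, adjusted p = 5.72e-07). Mup7 fell to 0.137 and 0.140 of its pericentral level in the periportal zone of the MASH sections, against 0.331 and 0.452 in the MAFL sections, and Mup12 to 0.396 and 0.339, against 0.638 and 0.787. For Mup20 the interaction was -0.05 (95% interval -0.27 to 0.16, adjusted p = 0.951). It was -0.83 for Mup9, -0.75 for Mup1, -0.26 for Mup17, 0.18 for Mup16, 0.28 for Mup18 and 0.19 for Mup3, with adjusted p between 0.166 and 0.925, and the signs of Mup3, Mup16, Mup18 and Mup20 turned when a section was left out and that of Mup17 with bins of total UMIs.

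Depth moved with zone in MASH: the median was 33004.5 and 34042 UMIs per spot in the periportal zones of the MASH sections and 22896 and 15751 in their pericentral zones. In the MAFL sections it was 15505 and 22462 periportally and 15631 and 18560 pericentrally. When the zones were ranked within 5 bins of total UMIs, 0 of the 10 interactions passed in edgeR (2 at an unadjusted p under 0.05), at -0.69, -0.44 and -0.50 for Mup7, Mup11 and Mup12. With library totals alone 1 passed, that of Mup12, with differences of -1.50, -1.31 and -0.91, while all genes split into 24 more positive and 53 more negative calls, against 39 and 27. DESeq2 called the same 3 genes, beside 0.671% of 2981. Mup7 and Mup11 also lost the call without MASH-1 (differences of -1.31 and -1.38, adjusted p of 0.413 and 0.321) and without MASH-2 (-1.52 and -1.14, 0.394 and 0.480), and Mup12 without MAFL-2 (-0.73, 0.0514). Over 12 alternatives the adjusted p of these 3 ran from 2.17e-48 to 0.80, from 3.32e-40 to 0.803 and from 1.21e-16 to 0.242. The 3 calls stood with a score of 6 over 6 genes (-1.54, -1.41 and -0.87) and with outer zones of 20% of spots (-1.79, -1.32 and -1.01), so of the other ways to form zones the bins of total UMIs ended them. For the zone differences within each group, with ranking within bins of total UMIs 8 members passed in MASH, where Mup18 lost its call (adjusted p = 0.109), and 9 in MAFL.

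Across single spots, each thinned to 5000 UMIs, the 28 pairs of the 8 members other than Mup3 and Mup20 all had positive Spearman correlations, many of them close to 0, given here as a description. They ran from 0.02 to 0.63 with a median of 0.21 in MASH-1 and from 0.0088 to 0.44 with a median of 0.077 in MASH-2, and from 0.14 to 0.87 with a median of 0.47 in MAFL-1 and from 0.062 to 0.84 with a median of 0.40 in MAFL-2. Mup20 had negative correlations with all 8, from -0.63 to -0.10 in MASH-1 and -0.47 to -0.06 in MASH-2, and from -0.79 to -0.17 in MAFL-1 and -0.82 to -0.10 in MAFL-2. Mup11 and Mup17 had a Spearman correlation of 0.57 and 0.44 over 2424 and 1846 spots in MASH, against 0.82 and 0.84 over 2001 and 1859 spots in MAFL. Mup11 and Mup20 had -0.57 and -0.47 in MASH, against -0.79 and -0.82 in MAFL. Mup3 and Mup20 stood near 0, at -0.08 and -0.07 in MASH, against 0.19 and 0.14 in MAFL. The points of a section share its library, and copies can share reads. Mup11 had at least 1 UMI in 71.9 and 49.6% of the thinned spots in MASH and in 100% of those in MAFL, so the correlations of the groups rest on unequal counts and are not compared.

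Of the other 12 Mup symbols 10 were tested, 9 had a negative log2 fold change, and 2 were called lower in MASH. Mup14 stood at 57.1 and 50.8 CPM in MASH, against 231 and 172 CPM in MAFL, with a log2 fold change of -1.99 (SE 0.20, adjusted p = 0.0154). Mup15, at 0.266 and 0.314 CPM in MASH, against 3.29 and 4.25 CPM in MAFL, had -3.80 (SE 0.34, adjusted p = 0.0086). The 12 summed to 346 and 317 CPM in MASH and 668 and 613 CPM in MAFL, 1.93-fold lower, so the members held nearly all Mup UMIs.

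Other male-biased liver genes, from a list chosen with earlier results of these data known, went the same way by sign. All 20 of the list had a negative log2 fold change in MASH, with a median of -0.91 beside 0.0069 over all genes, and 1 passed in edgeR, beside 10 lower in DESeq2 and 13 at an unadjusted p under 0.05 in edgeR. Over all genes 19.2% had an unadjusted p under 0.05 in edgeR, and DESeq2 called 2.62% higher and 1.78% lower, against which the counts of this and the following lists are to be read. C8b, a component of the complement attack complex, stood at 131 and 140 CPM in MASH, against 305.5 and 292 CPM in MAFL (log2 fold change -1.24, adjusted p = 0.0344). Moxd1, which encodes a monooxygenase, was at 0 UMIs in both MASH sections, where 3 UMIs would be 0.0470 and 0.0673 CPM, against 12.2 and 24.3 CPM in MAFL. Its mean in MAFL was thus 319-fold of the mean of those floors, a ratio of means and not a bound for each section. In edgeR its adjusted p was 0.0663. The P450 gene Cyp2u1 (28.4 and 31.4 CPM in MASH, 54.9 and 44.0 CPM in MAFL) and the sulfotransferase gene Sult5a1 (2.65 and 2.40 CPM, against 5.02 and 7.63 CPM) did not pass either. The 20 genes summed to 3810 and 2724 CPM in MASH and 12351 and 6991 CPM in MAFL.

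Of 15 female-biased genes 7 could be tested, with a median of 1.13, and the 1 called in edgeR was lower (3 at an unadjusted p under 0.05, 2 higher and 1 lower in DESeq2). This was the P450 gene Cyp2c40, at 0.878 and 1.19 CPM in MASH, against 3.60 and 4.69 CPM in MAFL (log2 fold change -2.12, adjusted p = 0.0406). The P450 gene Cyp2b9 stood at 0.313 and 1.73 CPM in MASH, against 0 and 0.0525 CPM in MAFL (adjusted p = 0.154). Cyp2a4 (0.282 and 2.38 CPM in MASH, 0.124 and 0.157 CPM in MAFL) and the steroid hydroxylase gene Cyp17a1 (4.95 and 14.2 CPM, against 3.63 and 3.91 CPM) did not pass.

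Among 15 tested genes of growth hormone signalling, with a median of -0.15, 1 passed in edgeR (5 at an unadjusted p under 0.05, 1 higher and 1 lower in DESeq2). Bcl6, a repressor that binds many STAT5 sites in mouse liver, was higher in MASH at 34.0 and 38.6 CPM, against 11.1 and 9.23 CPM in MAFL (log2 fold change 1.74, SE 0.15, adjusted p = 0.0086). Cish, a feedback inhibitor induced by STAT5, stood at 3.17 and 2.67 CPM in MASH, against 33.2 and 6.06 CPM in MAFL (adjusted p = 0.256). Its MAFL sections were far apart, and it is named after its values were seen. Foxa2 (16.9 and 16.9 CPM in MASH, 35.8 and 23.7 CPM in MAFL), Igfbp3 and Igfals did not pass (adjusted p of 0.0985, 0.218 and 0.236). Of 11 other regulators of Mup genes 0 passed in edgeR (3 at an unadjusted p under 0.05, 1 higher and 1 lower in DESeq2). Among them Mlxipl, a glucose-responsive transcription factor, stood at 92.9 and 59.3 CPM in MASH, against 164 and 133 CPM in MAFL (log2 fold change -1.05, adjusted p = 0.131).

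Of 23 abundant secreted proteins of hepatocytes 0 passed in edgeR (6 at an unadjusted p under 0.05, 6 lower in DESeq2), with a median of -0.22, and they summed to 234537 and 231697 CPM in MASH and 242447 and 239010 CPM in MAFL. The protease inhibitor Serpina3k was the nearest, at 7193 and 7939 CPM in MASH, against 14645 and 11332 CPM in MAFL (adjusted p = 0.110). Of 9 tested other lipocalins 0 passed (2 at an unadjusted p under 0.05, 1 higher and 1 lower in DESeq2), with a median of 0.04. Apom, the apolipoprotein that carries sphingosine 1-phosphate, stood at 350 and 317 CPM in MASH, against 564 and 565 CPM in MAFL (adjusted p = 0.0950). Lcn2, an iron-siderophore carrier induced in inflammation, stood at 37.9 and 122 CPM in MASH, against 9.49 and 11.4 CPM in MAFL (log2 fold change 2.80, adjusted p = 0.156), the largest difference of the list.

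Among the markers of other cells, only monocyte and macrophage genes passed over whole sections in edgeR. Of 6 monocyte and macrophage markers 3 were higher in MASH (Lyz2, Tyrobp and Fcer1g), none was at 0 in any section, and they summed to 396 and 413 CPM in MASH and 112 and 125 CPM in MAFL. Stellate cell and fibroblast markers summed to 260.1 and 436 CPM in MASH and 163 and 149 CPM in MAFL, with 0 of 6 called in edgeR (6 at an unadjusted p under 0.05, 2 higher in DESeq2). Of 5 Kupffer cell markers 0 passed in edgeR or DESeq2 (2 at an unadjusted p under 0.05 in edgeR), with sums of 478 and 437 CPM in MASH and 247 and 328 CPM in MAFL. Cholangiocyte markers summed to 8.45 and 25.3 CPM in MASH and 11.3 and 9.31 CPM in MAFL, endothelial markers to 139 and 144 and to 126 and 119 CPM, T cell markers to 6.0 and 8.77 and to 4.16 and 3.51 CPM, and B and plasma cell markers to 10.2 and 31.4 and to 4.84 and 7.97 CPM. Of these 17 genes 0 passed in edgeR (4 at an unadjusted p under 0.05), and DESeq2 called 1 T cell and 1 B or plasma cell marker higher in MASH. The part of these cells in the Mup differences was not tested. Of the 6 hepatocyte markers, whose sums are given above, 4 had a negative log2 fold change in MASH, with a median of -0.25.

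The genes outside the family whose pattern was most like the summed members were Mrpl24, Serpina1c, Zfp598, Serpina1e and Zpr1, with Pearson r of 0.958, 0.956, 0.955, 0.954 and 0.951 of log2(CPM + 1) over the 12 section zones. Serpina1e, a copy of the alpha-1-antitrypsin family that is also on the male-biased list, stood at 959 and 466 CPM in MASH, against 7553 and 3072 CPM in MAFL, and Serpina1c at 7032 and 6104 CPM, against 11972 and 10422 CPM. Nearest to Mup20 were St6gal1, Serpina12, Ppa1, Hsd17b13 and Tmem41a, with r of 0.938, 0.927, 0.905, 0.904 and 0.902. Hsd17b13, a lipid droplet protein, stood at 1376 and 1321 CPM in the periportal and 336 and 514 CPM in the pericentral zones of MASH, and at 1198 and 918 and 413 and 327 CPM in those of MAFL. These are descriptions over 4098 genes, and the 12 points share 4 sections.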

How the data were processed

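Gene by spot counts of 4 mouse liver sections were used as the authors deposited them, which the headers of the files credit to Space Ranger 1.2.2 and the submitters' processing notes to the build mm10; how reads that match several copies were assigned is not given in the sources used here. Spots under 500 UMIs were left out (3 in MASH-1 and 3 in MAFL-1). UMIs were summed per section and per zone of each section (3 ranks of equal size), and tested with edgeR 4.0.16 (TMM scaling, filterByExpr, quasi-likelihood F test) in R 4.3.3 over all genes, with Benjamini-Hochberg adjusted p of 0.05. The fit of zones holds section as a block, and MASH and MAFL share its estimate of the spread, so leaving out a section of either group can move the calls of both. DESeq2 1.42.0, other scalings, filters, zone scores and section counts were alternatives. Scripts were tested on simulated data. Sections were grouped by their labels. Precision rests on 2 sections a group; an exact permutation test of 2 against 2 sections cannot go below 0.33.

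All 10 members are named. Single other Mup genes are named where they passed over whole sections. Up to 4 genes of the smallest p are named from each list, all of the sex-linked list, and the 5 genes outside the family most like the members in pattern (mean of at least 20 CPM). The members and all 15 lists were chosen with earlier results of these data known, and the lists were written from general knowledge of liver. Spots were thinned to 5000 UMIs for correlations between them. Promoter sequences come from RefSeq (GRCm38.p6).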

Additional observations from a re-analysis of the deposited data

Results flagged for a closer look

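The zone difference of 3 Mup genes differed between the groups by the interaction test in edgeR. The periportal minus pericentral log2 difference was more negative in MASH than in MAFL by -1.46 for Mup7, by -1.25 for Mup11 and by -0.88 for Mup12, and each of the 3 was lower periportally in all 4 sections. With zones ranked within bins of total UMIs the same differences were -0.69, -0.44 and -0.50, and 0 of the 3 passed. The part of spot depth in the difference was not tested further.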

How the results depend on the processing

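Mup11, Mup17 and Mup18 were lower in MASH under every alternative, and the 8 cluster copies were lower periportally in each group under every alternative. Over whole sections, 6 members were called by DESeq2 and 0 with the replicate number as a block in edgeR (9 members and 1900 of all genes at an unadjusted p under 0.05), against 3, and between 2 and 9 when 1 section was left out. Same-numbered sections did not deviate together (correlation -0.195 over 13593 genes). This correlation alone cannot show whether they were paired, which the labels do not state. With the numbers crossed in the block, an alternative chosen after seeing the data, 4 members and 779 genes were called. In the periportal zone 9 members were called with no filter on low counts, 7 by DESeq2, 5 with the replicate block, 6 with zones of 20% of spots and 2 to 9 with 1 section left out. In the middle zone these were 9, 5 and 1 (no filter, DESeq2, block) and 2 to 9, and in the pericentral zone 5, 5 and 5 and 3 to 8. Along the zones some members lost their call in each group with 1 section left out, and without either MASH section Mup3 was newly called in MASH. The interaction gave 1 member with library totals alone, 0 with zones within bins of total UMIs and 2 to 4 with 1 section left out.

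Signs turned as follows. Mup20 between MASH and MAFL was 0.0064 over whole sections and 0.069 in the pericentral zone with library totals alone, and 0.045 there with bins of total UMIs. With 1 section left out it ran from -0.32 to 0.14 over whole sections, from -0.32 to 0.072 periportally, from -0.50 to 0.11 in the middle and from -0.33 to 0.21 pericentrally. Mup3 along the zones of MASH ran from -0.15 to 0.60. The interaction of Mup17 was 0.38 with bins of total UMIs, and with 1 section left out that of Mup16 ran from -0.11 to 0.67, of Mup18 from -0.10 to 0.73, of Mup20 from -0.15 to 0.046 and of Mup3 from -0.19 to 0.56. The cause was not tested.

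Counts over all genes moved too. Over whole sections they were 1153 with no filter, 584 by DESeq2, 0 with the block, and 20 and 89 without MAFL-1 and MAFL-2 and 535 and 23 without MASH-1 and MASH-2, against 62. In the periportal, middle and pericentral zones, with 160, 53 and 71 calls, no filter gave 1180, 957 and 1002, DESeq2 331, 241 and 268, the block 71, 6 and 41, and 1 section left out 89 to 655, 19 to 374 and 29 to 1490. The middle zone gave 29 with library totals alone and 80 with bins, and the pericentral zone 158 with zones of 20% and 107 with another score. Along the zones, MASH gave 1026 and MAFL 527 by DESeq2 (2474 and 1090), MASH 1603 with bins, and MAFL 323 to 1561 with 1 section left out. The interaction, with 66, gave 118 with no filter, 24 with bins and 7 to 441 with 1 section left out. Of the single values of members, 725 kept their direction and side of the threshold, 80 newly passed it, 40 lost it and 15 changed sign. A lone section is taken to vary like the other sections.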
